A study of Drosophila melanogaster with 2 samples.

Results

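Transpac is a long terminal repeat (LTR) retrotransposon of *Drosophila melanogaster*, and 5 of its genomic copies were listed as higher in ovaries homozygous for a mutation of mino than in heterozygous ovaries. The members described here are those 5 insertions, Transpac{}156, Transpac{}1262, Transpac{}1439, Transpac{}32 and Transpac{}362, and 4 genes, B4, kirre, CG34353 and CG7900. In the reference annotation each gene holds 1 of these 5 copies on its own strand within an intron. The insertions and genes are 9 of the 272 features, counted by identifier, in the authors' list of higher features for reads with up to 10 mappings. They are 13 of its 367 entries, since transcripts of a gene were listed apart. Both the insertions and the genes were chosen from this list, so their rise is a description here and carries no test.

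RNA of whole ovaries was sequenced from flies 3 to 5 days old, kept at 25 °C, in 1 library per genotype. One genotype was heterozygous and the other homozygous for z3-5967, a mutation of CG5508 (mino), and no label names a further allele or agent. Mino, or minotaur, encodes a glycerol-3-phosphate acyltransferase, and the study's title places it in primary piRNA biogenesis. No difference below has a replicate check.

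LTR retrotransposons are copied through an RNA that runs from one terminal repeat to the other, and this RNA also encodes the proteins for reverse transcription and integration. In the ovary, Piwi-interacting RNAs (piRNAs) guide Piwi proteins to such RNAs and to the loci that make them, which keeps the elements silent. Copies of a young element are nearly alike in sequence, so a short read from one of them can often be placed at many copies. When such a copy sits in an intron, reads placed there can also be counted for the gene around it.

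The deposited means and ratios allowed the level in each library to be derived, and these derived levels are the ones given below. The authors' per-library columns of this list are headed zucMUT and zucCD, which match neither sample and were not used. Zuc is the symbol of zucchini, another gene of piRNA biogenesis, so the headers name a different mutant from the file's own name, which gives CG5508. Every derived level of the 394 entries with up to 10 mappings, in both libraries, was a whole multiple of the value of 1 read, within 0.01 read. That value was 1.16 normalized reads in the heterozygous and 0.863 in the homozygous library. Reads per feature could thus be recovered, and the homozygous library was 1.34 times as deep as the heterozygous one by the authors' scaling. Of 134 entries also listed with uniquely mapped reads, 34 had identical recovered reads in both libraries. In all 134, the reads with up to 10 mappings were at least as many as the uniquely mapped ones. No label states that both sets of lists hold the same libraries. They were taken to on this ground, and every value of Transpac and its host genes below rests on that reading.

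The homozygous level of every listed copy was far above the heterozygous one. Transpac{}1262, on chromosome 3R from 8094463 to 8099710 in the dm6 build, had 175 normalized reads in the heterozygous and 11889 in the homozygous library. Transpac{}1439, on 3R from 27863009 to 27868256, had 176 and 11968 normalized reads. Transpac{}156, on X from 18429549 to 18434802, had 176 and 11917. Every one of these levels lay within a narrow band for its library, and no heterozygous value came near a homozygous one. Transpac{}32, on X from 3075689 to 3080937, had 178 and 11985 normalized reads. Transpac{}362, on 2L from 13522313 to 13527561, had 180 and 11971.

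In the authors' deposited table the rise of the copies ranged between 66.6-fold and 67.9-fold, with a median of 67.7-fold. The exact 95% interval on the reads behind the median was 57.7 to 79.9. Such intervals cover counting error between these 2 libraries only. They are too narrow if a read was counted at both terminal repeats of a copy. The authors' adjusted p, which likewise rests on 1 library per genotype, was 4.92e-43 for 4 of the copies and 5.33e-43 for Transpac{}362. Across the whole list, 367 of about 23706 entries tested, or 1.55%, were called higher; the number tested was implied by the authors' smallest p and its adjusted value. By p, the 5 copies took ranks 2 to 6 of all entries. The largest adjusted p in the list was 0.0985, so no member lay near the threshold.

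The 5 copies differed from each other by very few reads. In the heterozygous library they held 151 to 155 reads, a range of 4. In the homozygous library they held 13777 to 13889 reads, a range of 112, or 0.809% of their mean. Their annotated lengths were just as even, 5248 to 5254 bases, and per kilobase of copy the level was 33.3 to 34.2 normalized reads in the heterozygous and 2265 to 2283 in the homozygous library. A read that maps to several copies may be counted at each, so the 5 entries are not 5 independent measurements, and their levels were not added up. Which copy gave rise to the RNA cannot be told apart from these values.

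**Figure D1:**
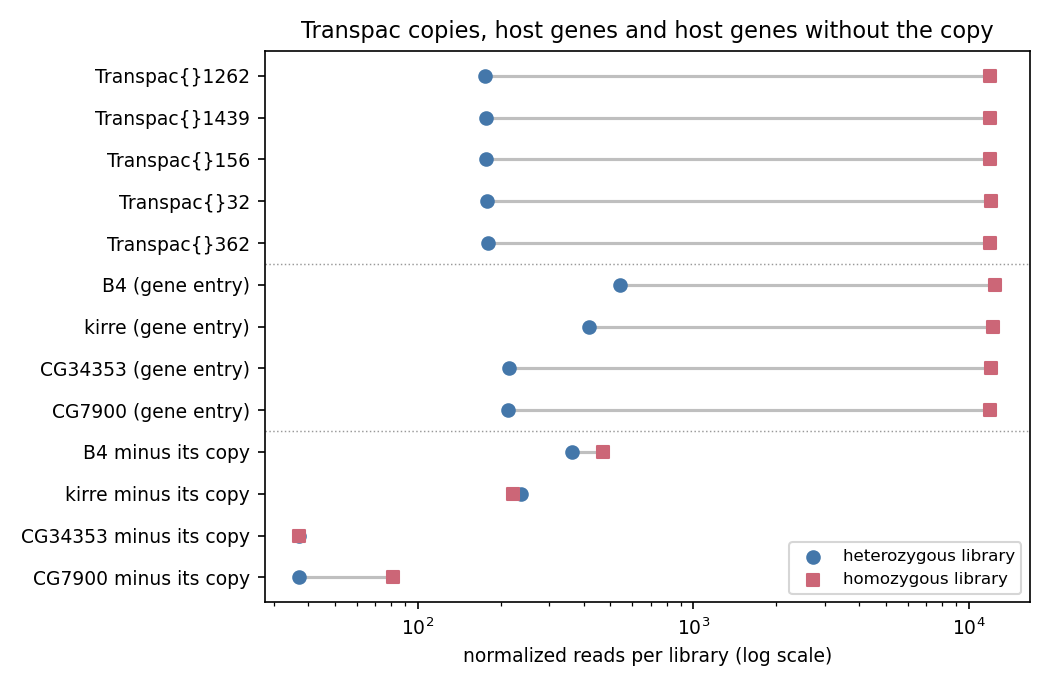
Normalized reads in the heterozygous (circles) and homozygous (squares) library, on a log scale, for the 5 Transpac copies, the 4 host genes (transcript entry with the highest mean) and the host genes after subtraction of their copy. Each point is 1 library, so there are no error bars; copies sit at 175 to 180 and 11889 to 11985, while after subtraction the pairs of points lie close together (for CG34353 the square covers the circle).

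In the dm6 annotation Transpac had 10 places, of which 5 were listed, and 8 of the 10 carried a FlyBase insertion identifier. By identifier, 5 of 8 Transpac copies were listed, or 62.5%, beside 182 of 5734 annotated insertions of all families, or 3.17%. Many annotated insertions of other families are short fragments, and the number that the authors could test is not known. The copies that were not listed comprised a fragment of 117 bases, Transpac{}3603, and 4 copies of full length. The fragment lies on 2R in an intron of sxc, which encodes an enzyme that attaches N-acetylglucosamine to proteins. Of the 4 long copies, 2 lack a FlyBase insertion identifier, and 1 of these lies in an intron of Pzl, a gene related to the mechanosensitive channel gene Piezo. The copies in sxc and Pzl lie on their gene's own strand, and neither gene was in any list. The sources used here do not state whether the unlisted copies were in the annotation that the authors counted.

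Transpac{}156 was the single listed copy outside any gene. Its nearest gene, CG32548, lay 917 bases away on the opposite strand and was in none of the lists. The other 4 listed copies lay in introns and overlapped no exon of any annotated transcript.

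The genes that hold these copies in the reference annotation rose in the same list. Whether the sequenced flies carry the copies at these places is not known. B4, on 2L from 13500624 to 13549328 in dm6, holds Transpac{}362 in intron 3, 7345 bases after the upstream exon. Its transcript entry with the highest mean had 543 normalized reads in the heterozygous and 12439 in the homozygous library, a 22.9-fold rise in the authors' deposited table (20.9 to 25.1). Kirre, on X from 2740384 to 3134532, encodes an immunoglobulin-type adhesion protein known for its role in the fusion of myoblasts, and it holds Transpac{}32. Its entry with the highest mean went from 416 to 12207 normalized reads, 29.3-fold in the authors' deposited table (26.4 to 32.7).

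The steepest rises among the host genes were in those with the lowest heterozygous levels, as the homozygous levels were nearly equal. CG34353, on 3R from 27767966 to 27905843, holds Transpac{}1439 in intron 2 and went from 213 to 12005 normalized reads. That is 56.3-fold in the authors' deposited table (48.7 to 65.5). CG7900, on 3R from 8094124 to 8105083, holds Transpac{}1262 in intron 1, between 134 bases after exon 1 and 313 bases before the next exon. Its level went from 212 to 11970 normalized reads, 56.4-fold in the authors' deposited table (48.8 to 65.7). In the homozygous library the 4 genes stood within a narrow range, 11970 to 12439, while in the heterozygous library they ranged from 212 to 543. Apart from the Transpac copies, the listed features with an authors' mean within 2% of a copy's mean were entries of CG34353 and CG7900.

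The mean of each gene over both libraries was close to that of its copy. B4 had a mean of 6491 normalized reads in the authors' deposited table, 6.85% above the 6075 of Transpac{}362. The excess over the copy was 3.78% for kirre, 0.611% for CG34353 and 0.980% for CG7900. In the homozygous library the copy's reads made up 96.2% of the reads of B4, 98.2% of those of kirre, 99.7% of those of CG34353 and 99.3% of those of CG7900. In the heterozygous library the corresponding shares were lower. They were 33.0% for B4, 42.9% for kirre, 82.6% for CG34353 and 82.5% for CG7900. B4 and kirre, with the smallest shares of copy reads in the heterozygous library, also had the smallest folds. This follows by arithmetic, since the copies held nearly equal reads and made up most of each homozygous level. These shares assume that every read of the copy was counted for the gene too.

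**Figure D2:**
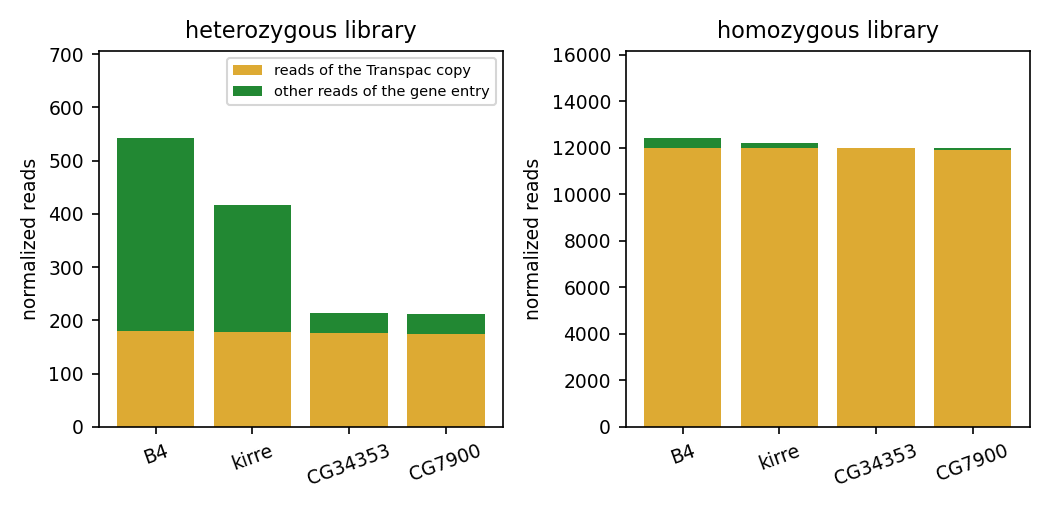
Normalized reads of the 4 host gene entries in each library, divided into reads of the Transpac copy (gold) and the other reads of the entry (green); the axes of the panels differ in scale. The copy makes up 33.0% to 82.6% of the bars in the heterozygous library and 96.2% to 99.7% in the homozygous library.

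Once the reads of the copy were subtracted, little difference between the libraries was left for kirre and CG34353. Kirre kept 238 heterozygous and 222 homozygous normalized reads, a ratio of 0.934 (0.774 to 1.13). CG34353 kept 32 and 43 reads, or 37.1 normalized reads in each library, with an interval of 0.619 to 1.63 for their ratio. Both intervals include 1, and for CG34353 the interval is wide at this depth. B4 kept 314 and 543 reads, or 364 and 469 normalized reads, 1.29-fold (1.12 to 1.48). CG7900 kept 32 and 94 reads, or 37.1 and 81.1 normalized reads, 2.19-fold (1.45 to 3.38).

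The remainders of B4 and CG7900 were thus higher in the homozygous library beyond counting error, if the copy's reads were subtracted exactly. They are small differences of large counts: 543 and 94 homozygous reads were left after 13872 and 13777 were subtracted. The homozygous reads of the 5 copies spanned a range of 112, so a small error in the subtraction could remove either rise. The intervals do not cover such an error. With 1 library per genotype, the spread between ovary samples is not known, so the ratios of the remainders compare the libraries and not the genotypes. Whether the reads left come from the gene or from sequence beside the copy was not tested. Among the 29 entries with a mean under 100 in the list of higher features with uniquely mapped reads, the smallest fold was 5.55, and the remainder of CG7900 had a mean of 59.1. Among the 49 entries with a mean of 100 to 500, it was 2.68, and the remainder of B4 had a mean of 416. All 4 remainders lay below the smallest fold listed at their level.

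Per kilobase the copies stood above the rest of the gene span, introns included, in both libraries. Exons make up 5920 of the 46673 bases of the B4 entry, so any reads from exons are averaged over much intron. Density over exons alone was not computed. Whether the copies stand above it in the heterozygous library is not known. In the heterozygous library, Transpac{}362 had 34.2 normalized reads per kilobase of copy, and the rest of the B4 span had 8.78 per kilobase. In the homozygous library these levels were 2281 and 11.3. The copy was thus counted 3.90 times as densely as the rest of the span in the heterozygous and 202 times in the homozygous library. A read may be counted at each of several copies, so the density due to 1 copy may be lower. The heterozygous excess was smallest for B4 and CG7900, at 3.90 and 5.14 times. Whether it would remain there with each read counted at 1 copy is not known. In the span of CG7900 outside the copy, the level was 6.49 and 14.2 normalized reads per kilobase. The spans of kirre and CG34353 outside the copy had 0.614 and 0.280 normalized reads per kilobase in the heterozygous library. In the homozygous library they had 0.573 and 0.280.

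The transcripts of a gene that were listed were those that span the copy. The 4 genes have 14 transcripts in dm6, of which 11 span the copy. All 8 listed entries were among the 11, and none of the 3 that start downstream of the copy was listed. Those 3 are short transcripts of kirre, FBtr0070560, FBtr0309498 and FBtr0309499. The other 3 unlisted transcripts, FBtr0332509 of B4, FBtr0332492 of kirre and FBtr0339321 of CG34353, do span it. The sources used here do not state whether the authors' annotation held them.

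**Figure D3:**
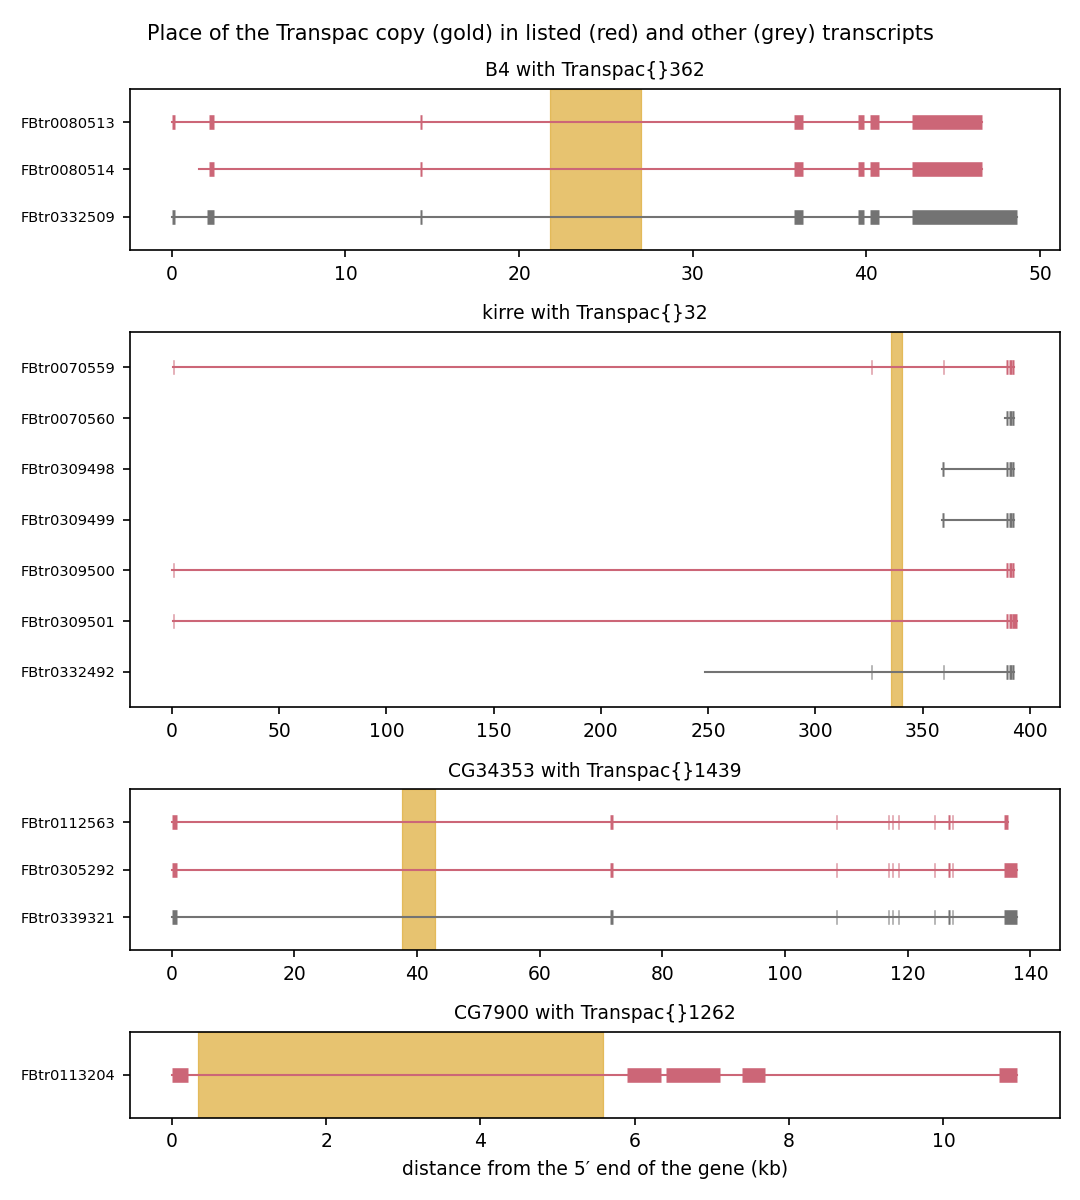
Annotated transcripts of the 4 host genes in dm6 against distance from the 5′ end of the gene in kilobases, with exons as thick bars, listed transcripts in red, others in grey and the Transpac copy in gold. All 8 listed transcripts run across the copy without an exon in it, and the 3 kirre transcripts that start beyond it are grey.

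Entries of the same gene, all of which span the copy, differed from each other by few reads. For B4, FBtr0080513 had 40 heterozygous and 49 homozygous reads more than FBtr0080514. It begins 1557 bases further upstream and has a different exon 1. These reads came to 46.4 and 42.3 normalized reads, a ratio of 0.912 with an interval that includes 1 (0.589 to 1.42). For kirre, FBtr0309500 exceeded FBtr0070559 by 1 heterozygous and 2 homozygous reads, and FBtr0309501 and FBtr0070559 had identical values although their exons differ. For CG34353, FBtr0305292 exceeded FBtr0112563 by 0 heterozygous and 1 homozygous read.

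With uniquely mapped reads no Transpac copy and none of the 4 genes was listed in either direction. These lists called 113 of about 21972 entries higher, or 0.514%, and held 20 insertions of 11 families. Features outside the lists have no deposited level, so the uniquely mapped reads of Transpac, B4, kirre, CG34353 and CG7900 are not known. They cannot be called unchanged.

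The orientation of the copies was set against genes with a listed insertion of another family. Of 25 genes that contain such an insertion on their own strand, 18 were listed as higher, or 72%. Of 31 genes with a listed insertion on the opposite strand, 1 was listed, or 3.23%. Where the insertion's mean was at least 1000 normalized reads, 6 of 6 genes on the same strand and 0 of 12 on the opposite strand were listed, Transpac left out. No listed Transpac copy lies in a gene on the opposite strand. Of 6 annotated genes that hold a Transpac copy, all on their own strand, 4 were listed, and sxc and Pzl were not. For the 18 genes of other families, the reads of the listed insertions could be subtracted with reads left in both libraries in 11. In another 5, no heterozygous and at most 2 homozygous reads were left. The last 2, CG32850 and Prosap, held fewer homozygous reads than their insertions, with differences of -1610 and -751 reads. The assumption that every insertion read was counted once for the gene thus did not hold in CG32850, which holds 1 listed insertion. For Prosap 2 listed insertions were subtracted, with means of 904.5 and 905.1 normalized reads. Reads placed at both would be taken off more than once, so the deficit of Prosap cannot decide this. For the 4 Transpac host genes every listed entry held more reads than its copy in both libraries, which the assumption requires but which does not establish it. The remainders of the 11 had a median of 1.16-fold (lowest 0.227, highest 2.14), beside a median of 1.14-fold for the 4 Transpac host genes. In 6 of the 11 the interval included 1, as it did in 2 of the 4 Transpac host genes. These other genes were chosen by the same lists, and the difference between the groups was not tested.

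Transpac stood high among the families by level and by fold. Its median mean of 6072 normalized reads ranked 2 among 23 families with at least 3 listed insertions, and its median fold ranked 3. Over all listed insertions the median fold was 15.2, for 180 with a finite value, and the median of the means was 428 normalized reads. Among the families with at least 3 listed insertions, those nearest to Transpac by median fold in the authors' deposited table were HeT-A, the telomeric retrotransposon, at 44.2-fold, blood at 109-fold, Stalker2 at 39.8-fold, 3S18 at 28.4-fold and Burdock at 26.4-fold. Of 128 annotated transposon families, 46 had listed insertions, or 35.9%. Of 12 LTR families grouped here, not by the authors, as active in the germline, 10 had listed insertions, with a median of family medians of 17.4-fold. Of 12 families grouped here as those of follicle cells, 8 had them, with 15.8-fold. All of these medians are of features chosen as higher.

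Among these 23 families the listed copies of Transpac were the most even in level. The highest mean of a Transpac copy was 1.01 times the lowest, beside 1.02 for Ivk, 1.04 for rover and 1.11 for diver. In the other 22 families the median of this ratio was 3.09, and in HeT-A it reached 135. Families with listed fragments as well as long copies can have a large ratio, and copy length was not accounted for.

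**Figure D4:**
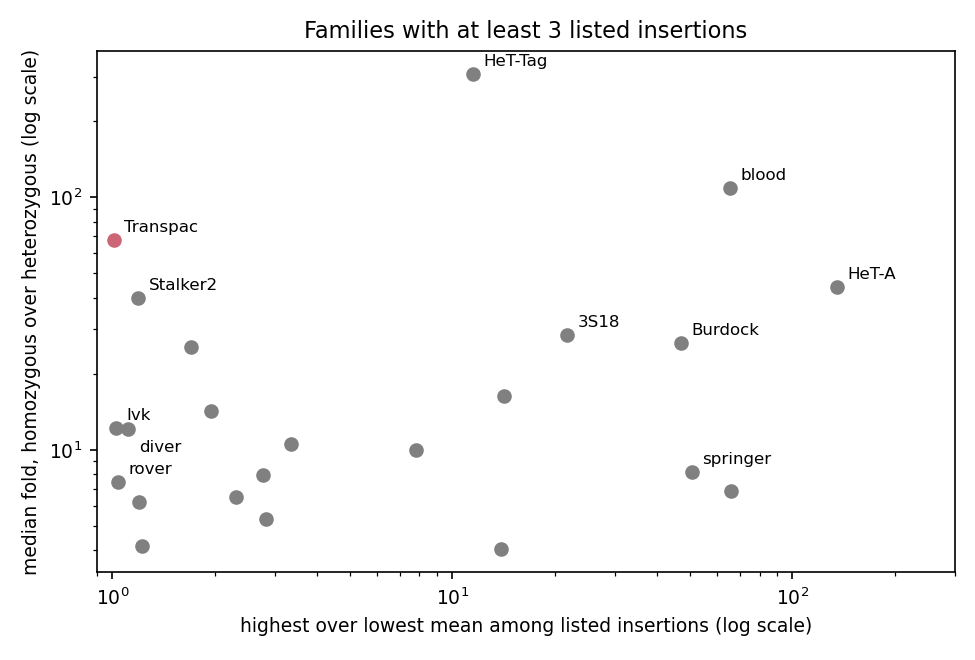
Median fold (homozygous over heterozygous, authors' deposited table, log scale) against the ratio of the highest to the lowest mean among listed insertions (log scale) for 23 families with at least 3 listed insertions, Transpac in red. Transpac lies at the far left with a ratio of 1.01 and a median of 67.7-fold, while HeT-A, blood and Burdock lie at the right.

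Other features of the libraries moved beside the Transpac reads. None of 38 piRNA pathway genes was listed in any direction, and mino itself was in no list, so the genotype labels could not be checked by its level. With up to 10 mappings, 5 of 15 eggshell genes were lower, beside 0.114% of all entries tested. Also with up to 10 mappings, 4 of 9 fat body, 4 of 15 muscle and 1 of 7 hemocyte markers were higher, beside 1.55% of all entries. None of 8 germline and none of 6 follicle cell markers was listed, and neither was any of 5 neuron markers. Their levels are not known, so the ovarian label could not be checked beyond the eggshell genes. In whole ovaries, fewer cells of a type and less RNA per cell cannot be told apart, and the part of cell makeup in the Transpac values was not tested.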

How the data were processed

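Ovary RNA of 1 heterozygous and 1 homozygous library was made into sequencing libraries with not-so-random priming, per the labels' protocols. Bowtie 0.12.8, TopHat 1.4.1, DESeq 1.8.2, bedtools and build dm3 are named without roles, per the submitters' processing notes. The authors deposited 5 lists of features that passed their test. Signal values are read counts normalized by the authors, per the file headers; the fold is a ratio of heterozygous over homozygous, inverted here. The log2 values and the p-values, raw and adjusted, are the authors', per the file headers. With up to 10 mappings, 4 columns of per-library values have names that match neither sample and were not used. Library levels of those lists were derived from the authors' mean and ratio.

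The members and lists were chosen with earlier results of these data known. Every Transpac entry and the 4 host genes were named with all values, the other genes with a copy by symbol, the 5 families with the nearest median fold among those with at least 3 listed insertions, and features with a mean within 2% of a copy's. Other genes named are members of the fixed lists or were singled out after their values were seen. Where a gene had several entries, the one with the highest mean was used. Positions came from Ensembl release 115 (dm6) by FlyBase identifier and were not converted from dm3; 182 of 184 listed insertions matched. Ratios were given exact conditional binomial intervals (Clopper-Pearson, 95%) with scipy 1.17.1. Recovery of reads was tested on simulated data of 1976 features for this comparison with up to 10 mappings. Reads were recovered in 100% of features, and the simulated ratio fell within the interval for 95.7% of 1777 unchanged features and for 92% of 50 that were raised 64-fold. Total depth per library is not known. No genome sequence was used.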

Additional observations from a re-analysis of the deposited data

How the results depend on the processing

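No paired analysis was possible because there was only 1 library of each genotype, and no library could be left out. Counts of listed copies and of host genes by strand kept within 1.5 times under each alternative run. So did the count of host genes near their copy's mean, with 4 within 10% and 3 within 5%, where B4 dropped out. The share of annotated copies listed did so too (50% of all places, 55.6% of those of at least 1000 or 4000 bases). A pseudocount of 10 left the fold of each copy and host gene within its counting interval. For the median fold of the copies, 67.7, pseudocounts of 1 and 10 did so too, and a pseudocount of 100 lowered it to 43.5. With 0.5 of the copy's reads subtracted in place of all, the remainder was 14.2-fold for B4, 19.0-fold for kirre, 48.1-fold for CG34353 and 48.4-fold for CG7900, since the remaining copy reads then outnumber the rest in the homozygous library. The remainders, unlike the folds, therefore rest on the assumption that each read of the copy was counted once for the gene. Other listed transcripts of a gene and the share by FlyBase identifier, chosen after seeing the data, kept the remainders and the share (62.5%) within their intervals. Counts of sequence windows that occur once in the genome were not run. Depth limits CG34353 and CG7900, with 32 heterozygous reads each outside the copy.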

Other observations

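Transpac{}1439 and CG34353, chosen here after their values were seen, lie on the same chromosome arm as the mutated gene. So do Transpac{}1262 with CG7900 and the unlisted copy in Pzl. In dm6 mino runs from 27925191 to 27933077 on 3R, and 56.9 kb separate it from Transpac{}1439. The fold of Transpac{}1439 was 67.9, beside 66.6 to 67.9 for the other listed copies. The entries of the listed copies are not independent measurements, as stated above, so their folds cannot set 1 copy apart from the others. A relation between the distance to mino and the fold was not tested.

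Remainders differed among host genes of other families as well. CG12535, which holds a 3S18 insertion, kept 59 heterozygous and 18 homozygous reads, a ratio of 0.227 (0.126 to 0.391), while its own entry rose 19.0-fold in the authors' deposited table. The gene neuroligin, which holds a diver insertion, kept 50 and 129 reads, 1.92-fold (1.38 to 2.72). For bxd, with another diver insertion, no read was left in either library. These genes were singled out after their values were seen.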
